A study of Mus musculus with 9 samples.

Results

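The binding of ZEB1 to DNA after 48 h in eribulin was compared with its binding in untreated cells in PB3, a mouse breast cancer line. All consensus peaks of the deposited count table entered the comparison, in the 2 libraries of 48 h against the 2 untreated control libraries, which are 4 of the 9 libraries of the study. The table holds 23623 peaks, of which 21192 (89.7%) had enough reads to be tested. The cells are labelled as lacking the oestrogen and progesterone receptors and Her2, and they grew in DMEM/F12 medium. The 48 h libraries come from cells in 300 nM eribulin, the control libraries from cells with no treatment. The labels name the line of the control libraries PB3-Parental and that of the treated libraries PB3_ERI. If these names stand for cultures that were kept apart, their difference and the drug cannot be told apart. The other libraries are 2 after 24 h, 2 after 72 h and 1 made with IgG in place of the ZEB1 antibody. Nothing in the labels says that replicates came from separate cultures, so p-values measure the spread between these libraries, which may be technical. The study's title concerns a return of mesenchymal breast cancer cells to an epithelial state, and the comparison asks where ZEB1 sits on the genome after the second of 3 drug times.

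ZEB1, a transcription factor with zinc fingers, binds E-boxes, short DNA motifs of the form CACCTG, and represses epithelial genes such as the E-cadherin gene Cdh1. It works with corepressors that include CtBP and histone deacetylases, and it can also sit at active genes together with AP-1 and the Hippo pathway effector YAP. High ZEB1 activity is a mark of the epithelial to mesenchymal transition, in which carcinoma cells lose junctions and polarity and gain motility. Eribulin stops the growth of microtubules and is used against breast cancer. In CUT&RUN an antibody brings a nuclease to the protein of interest, and the DNA released beside it is sequenced. The value of a peak is thus a count of DNA fragments at a place in the genome and not the expression of a gene, so the labelled cell type could not be checked against marker genes. A change in the share of cells that bind a site and a change in binding per cell cannot be told apart.

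The control libraries held 372896 and 672582 counts in consensus peaks, and the 48 h libraries 765015 and 593248. Counts are given below as CPM, the usual depth-scaled count, relative to each library's TMM-adjusted total in tested peaks. Over peaks with 10 or more reads in the pair compared, the controls differed from each other by less than sampling noise, with a chi-square per degree of freedom of 0.931. The 48 h pair differed at 1.06. A control and a 48 h library differed at 1.89 to 2.24. A pair that differs by less than sampling noise can be 1 library deposited as a pair, and the same held for 24 h (0.953) and 72 h (0.965). With each of these 3 pairs added up to a single library, 1091 peaks were called higher and 999 lower at 48 h. The labels name no added control DNA for scaling, so every change is a change of share among the peaks.

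The promoters of 7 genes show the DNA at peaks described below. They were chosen after the values were seen, from peaks that lie over a promoter and belong to the named genes. The first 5 overlap peaks that rose at 48 h, and the last 2, of the epithelial keratin gene Krt8 and the mesenchymal vimentin gene Vim, peaks that fell. All of the first 5 hold the E-box, which was in 169 of 591 promoter windows under rising peaks (28.6%). They therefore do not stand for rising promoters in general. Each line gives the 250 bases before the gene's start from the RefSeq promoter table (GRCm38.p6), on the gene's own strand from 5′ to 3′. Capitals mark the E-box CACCTG or its reverse complement CAGGTG.
Ssh3 promoter, chr19:4269181-4269430, minus strand: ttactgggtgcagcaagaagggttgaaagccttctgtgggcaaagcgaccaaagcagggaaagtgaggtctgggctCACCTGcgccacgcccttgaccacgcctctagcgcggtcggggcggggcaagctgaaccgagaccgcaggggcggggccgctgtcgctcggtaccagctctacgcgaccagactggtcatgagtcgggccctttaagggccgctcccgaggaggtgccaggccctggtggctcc
Kif18a promoter, chr2:109280488-109280737, plus strand: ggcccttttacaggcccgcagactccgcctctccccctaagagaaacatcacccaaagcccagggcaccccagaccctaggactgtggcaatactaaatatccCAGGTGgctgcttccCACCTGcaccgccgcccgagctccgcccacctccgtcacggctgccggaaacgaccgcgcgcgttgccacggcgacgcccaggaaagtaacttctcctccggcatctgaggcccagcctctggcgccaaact
Tap1 promoter, chr17:34187306-34187555, plus strand: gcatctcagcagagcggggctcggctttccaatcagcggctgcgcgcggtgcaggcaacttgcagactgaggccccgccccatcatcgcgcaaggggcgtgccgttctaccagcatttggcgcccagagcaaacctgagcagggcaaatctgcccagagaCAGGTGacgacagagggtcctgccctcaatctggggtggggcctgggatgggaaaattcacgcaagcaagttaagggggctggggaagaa
Bst2 promoter, chr8:71537473-71537722, minus strand: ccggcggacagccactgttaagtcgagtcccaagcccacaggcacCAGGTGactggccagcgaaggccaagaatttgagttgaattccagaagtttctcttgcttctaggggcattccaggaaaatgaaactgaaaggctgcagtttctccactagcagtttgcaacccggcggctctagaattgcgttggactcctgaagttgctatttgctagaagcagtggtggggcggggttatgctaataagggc
Ppara promoter, chr15:85735526-85735775, plus strand: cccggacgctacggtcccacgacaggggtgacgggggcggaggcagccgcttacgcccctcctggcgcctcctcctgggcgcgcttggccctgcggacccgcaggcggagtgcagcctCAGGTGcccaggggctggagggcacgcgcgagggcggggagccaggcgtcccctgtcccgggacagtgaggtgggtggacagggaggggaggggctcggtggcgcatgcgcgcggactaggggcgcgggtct
Krt8 promoter, chr15:102004343-102004592, minus strand: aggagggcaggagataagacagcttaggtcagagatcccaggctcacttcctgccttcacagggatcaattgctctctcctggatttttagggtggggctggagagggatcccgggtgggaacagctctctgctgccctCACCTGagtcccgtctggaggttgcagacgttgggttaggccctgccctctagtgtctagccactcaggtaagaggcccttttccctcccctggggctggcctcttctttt
Vim promoter, chr2:13574061-13574310, plus strand: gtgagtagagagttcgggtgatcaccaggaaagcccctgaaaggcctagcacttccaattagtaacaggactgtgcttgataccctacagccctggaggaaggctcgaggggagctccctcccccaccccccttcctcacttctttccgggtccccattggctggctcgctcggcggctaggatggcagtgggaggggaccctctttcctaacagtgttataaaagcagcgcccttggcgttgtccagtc
The E-box begins 174 bases before the start in Ssh3, 147 and 132 in Kif18a, 90 in Tap1, 205 in Bst2, 132 in Ppara and 111 in Krt8. The Vim stretch holds no such motif. The Tap1, Ppara, Krt8 and Vim stretches lie wholly in their peaks, and those of Bst2, Kif18a and Ssh3 share 230, 160 and 145 bases with theirs. Each printed E-box lies within the peak except that of Ssh3, which lies beyond the peak's edge.

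At 48 h ZEB1 signal was higher at 1290 of the 21192 tested peaks (6.09%) and lower at 1147 (5.41%), which is 11.5% in either direction (edgeR quasi-likelihood test, p adjusted by Benjamini-Hochberg across the tested peaks, threshold 0.05). The median log2 fold change was 1.16 among the peaks called higher and -0.96 among those called lower. Both 48 h libraries lay above both controls at 5974 peaks (28.2%) and below both at 5659 (26.7%), called or not. The number of calls moved with the library left out and with the method. The higher and lower calls were 708 and 792 without control replicate 1, 257 and 260 without control replicate 2, 720 and 543 without 48 h replicate 1, and 748 and 749 without 48 h replicate 2. DESeq2 called 36 higher and 40 lower, and it set no adjusted p for 11504 peaks. Of the 1290 peaks called higher, 1290 kept the sign of their fold change in each of these fits. Of the 1147 called lower, 1147 did, except that 1146 did without control replicate 2. These fits reuse libraries by which the peaks were chosen, so a kept sign is not independent support.

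**Figure D1:**
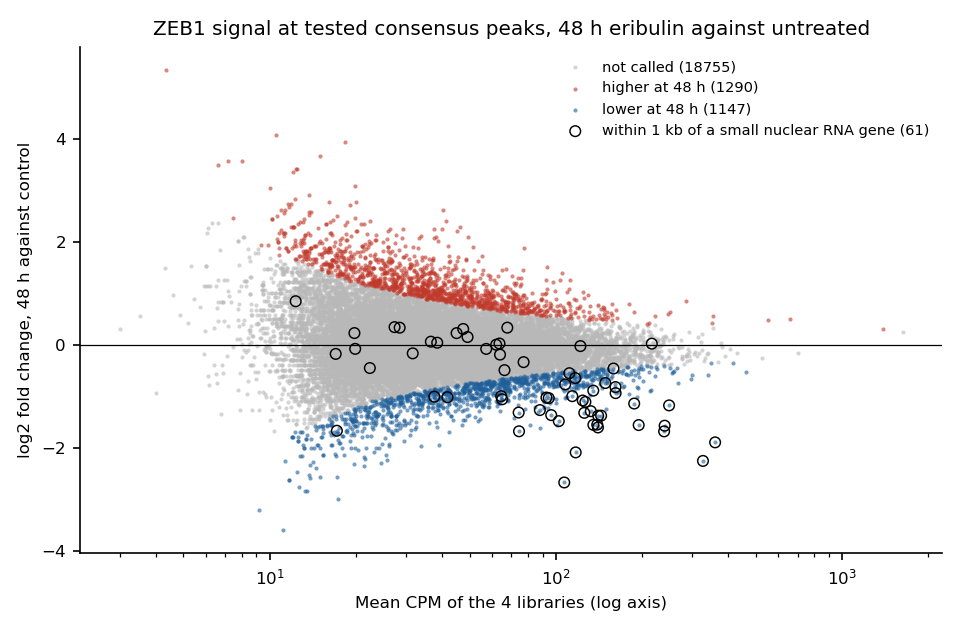
Log2 fold change at 48 h against control (y axis) over the mean CPM of the 4 libraries (x axis, log scale) for each of the 21192 tested peaks. Red points are the 1290 peaks called higher, blue points the 1147 called lower, grey points the rest, and rings the 61 peaks 1 kb or less from a small nuclear RNA gene. The rings crowd among the lowest folds at high CPM.

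The 12 rises with the smallest p are given first, taken 1 per gene among called peaks whose groups did not overlap. A peak of 717 bp that lies outside genes, 3854 bp from Ankrd12, an ankyrin repeat protein gene (chr17:65961491-65962207), stood at 30.2 and 35.2 CPM in the controls and at 132 and 113 CPM at 48 h. Both treated libraries were above 3 times the higher control. The log2 fold change was 1.88, with an SE of 0.24 and an adjusted p of 1.87e-09. The peak of Ssh3, a phosphatase gene of the slingshot family that acts on the actin-severing protein cofilin, lies 93 bp from the gene's boundary over the part of the printed promoter next to the start (chr19:4268956-4269325). It had 16.5 and 24.5 CPM in the controls and 76.7 and 87.2 CPM at 48 h, with no overlap between the groups. The log2 fold change was 1.90 (SE 0.29, adjusted p = 9.27e-07).

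A peak inside Otud7b, a deubiquitinase gene, rose from 19.2 and 9.17 CPM to 70.1 and 66.7 CPM (chr3:96127888-96128329, log2 fold change 2.41, SE 0.34, adjusted p = 9.98e-08). A peak inside Ip6k3, an inositol phosphate kinase gene, rose from 11 and 18.3 CPM to 82.0 and 73.6 CPM (chr17:27160768-27161352, log2 fold change 2.3, SE 0.32, adjusted p = 3.50e-08). In both, the lower 48 h library was far above the higher control. The peak of the fatty acid transporter gene Slc27a1 was the strongest of the 12, with 201 and 202 CPM in the controls and 328 and 409 CPM at 48 h. Its rise was the smallest of the 12, 0.86 as log2 fold change (SE 0.14, adjusted p = 2.24e-06). The log2 fold changes of the others were 1.52 at Adk, the adenosine kinase gene, 2.1 at Kctd3, 2.22 at Borcs5, a gene of the complex that moves lysosomes, 1.26 at Tuft1, 2.26 at the lectin receptor gene Clec4d, 1.26 at the mitochondrial ATPase gene Atad1 and 1.46 at Tmem241. Of the 12 rises, 4 lay at a gene boundary, 6 inside and 2 outside genes, and 0 lay 1 kb or less from a small nuclear RNA gene.

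The 12 falls chosen by the same rule had another makeup, since 10 of them lay 1 kb or less from a small nuclear RNA gene. Small nuclear RNAs are the short noncoding RNAs of the splicing machinery and related complexes. The protein-coding names used here are those of the nearest such gene and can lie far from the peak. The peak with the smallest p of all lies 14721 bp outside Mreg, a gene of melanosome transport, beside the small nuclear RNA gene Gm25360 (chr1:72225923-72228148). It had 566 and 514 CPM in the controls and 99.2 and 128 CPM at 48 h. The groups were far apart, with a log2 fold change of -2.25, an SE of 0.14 and an adjusted p of 7.08e-29.

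The peak at the boundary of Alyref2, an mRNA export factor gene, fell from 514 and 619 CPM to 161 and 147 CPM (chr1:171501297-171503835, log2 fold change -1.89, SE 0.13, adjusted p = 2.64e-25). A peak inside Hhat, the acyltransferase gene that acts on hedgehog proteins, fell from 173 and 194 CPM to 19.8 and 41.1 CPM (chr1:192745529-192746775, log2 fold change -2.67, SE 0.22, adjusted p = 3.71e-19). A peak 7993 bp outside Kif2c, a kinesin gene of microtubule disassembly, fell from 198 and 182 CPM to 38.4 and 51.3 CPM (chr4:117189967-117191268, log2 fold change -2.09, SE 0.20, adjusted p = 8.80e-16). In each of these 3 peaks the higher 48 h library was below the lower control, which the rule required. The 2 falls with no small nuclear RNA gene within 1 kb were assigned to Pdhx and Slc6a4. The first lies outside genes, 39580 bp from Pdhx, a gene of the pyruvate dehydrogenase complex. The second lies inside Slc6a4, the serotonin transporter gene. The Pdhx peak had 195 and 223 CPM in the controls and 86.0 and 94.1 CPM at 48 h (chr2:102980835-102982115, log2 fold change -1.25, SE 0.16, adjusted p = 8.77e-09). The Slc6a4 peak had 129 and 134 CPM in the controls and 39.7 and 47.9 CPM at 48 h (chr11:77011630-77012335, log2 fold change -1.61, SE 0.21, adjusted p = 8.77e-09). The other falls had log2 fold changes of -1.68 at BC107364, -1.56 at Pecr, -1.60 at Rdm1, -1.17 at Tex14, -1.37 at Slfn14 and -1.48 at Arl4d. The falls were broad, from 706 to 2539 bp with a median of 1291.5 bp, and the rises narrower, from 313 to 1431 bp with a median of 619 bp. Each of the 24 peaks kept its direction under all 13 alternative settings, which reuse libraries by which the peaks were chosen.

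**Figure D2:**
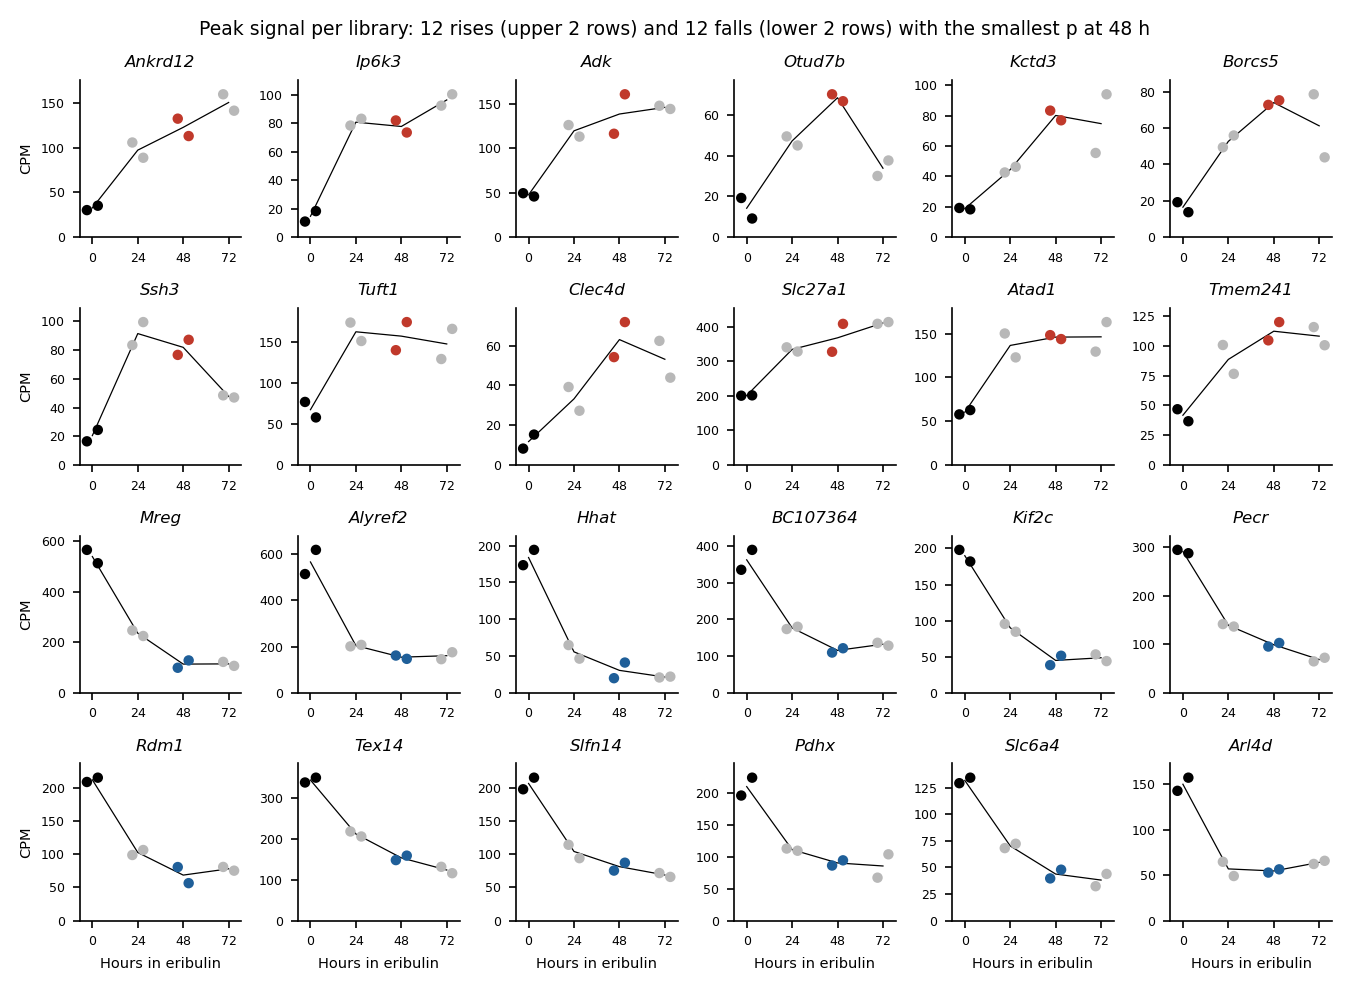
CPM (y axis, linear, from 0, its own scale in each panel) by hours in eribulin (x axis, 0 is untreated) at the 12 rises (upper rows) and 12 falls (lower rows) with the smallest p at 48 h, 1 per gene; each point is 1 library (black control, red or blue 48 h, grey 24 h and 72 h) and lines join the means. The peaks were chosen for groups that do not overlap, and the sizes differ, from 566 and 514 CPM against 99.2 and 128 CPM at Mreg to 201 and 202 CPM against 328 and 409 CPM at Slc27a1.

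Gains and losses lay at different places relative to genes. A boundary peak is one centred no more than 1 kb from where a protein-coding gene starts or ends. Of 6027 boundary peaks 505 rose (8.38%) and 103 fell (1.71%), with a median log2 fold change of 0.20. Of 7615 peaks inside genes 429 rose (5.63%) and 434 fell (5.70%), with a median of -0.03. Of 7550 peaks outside genes 356 rose (4.72%) and 610 fell (8.08%), with a median of -0.12. Over all tested peaks the shares were 6.09% and 5.41% and the median was 0.00. Within 99 bp of a boundary 219 of 2691 peaks rose and 24 fell, and at 20000 to 50000 bp 185 of 3523 rose and 254 fell.

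The order of the medians was the same in each alternative setting, from 0.14 to 0.24 for boundary peaks, -0.05 to -0.02 inside genes and -0.15 to -0.11 outside them. It was also present among the peaks that the authors called in both the control and the 48 h list, where 277 boundary peaks rose and 64 fell (7.77% and 1.79%) while 157 outside peaks rose and 303 fell (3.95% and 7.62%). The counts moved with the libraries. Rises and falls at boundaries were 269 and 85 without control replicate 1, 85 and 28 without control replicate 2, 233 and 61 without 48 h replicate 1, and 311 and 59 without 48 h replicate 2. Outside genes they were 203 and 426, 81 and 144, 238 and 288, and 196 and 423 in the same order. Inside genes they were 236 and 281, 91 and 88, 249 and 194, and 241 and 267. With DESeq2 the rises and falls were 9 and 8 at boundaries, 17 and 11 inside and 10 and 21 outside genes. Against the same controls, boundary peaks had medians of 0.06 at 24 h and 0.37 at 72 h.

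**Figure D3:**
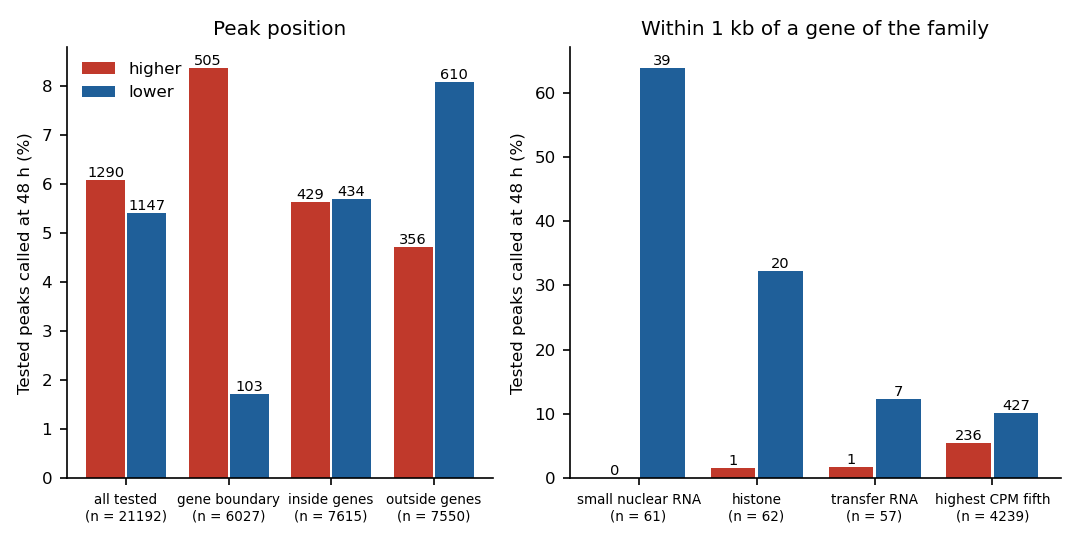
Percent of tested peaks called higher (red) and lower (blue) at 48 h, with the number called above each bar: left by position, right for peaks within 1 kb of small nuclear RNA, histone and transfer RNA genes and for the quintile of highest CPM; the y axes differ. Rises outnumber falls at boundaries (8.38% against 1.71%), falls outnumber rises outside genes (8.08% against 4.72%), and 63.9% of the peaks beside small nuclear RNA genes fell.

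The share of promoters with the ZEB1 E-box was described under rising, falling and other peaks, with no test. A promoter window is the 250 bases before and 50 bases after a gene's RefSeq start (GRCm38.p6), and CACCTG was searched on both strands, which also finds CAGGTG. The E-box was in 169 of 591 windows under a peak that rose (28.6%), in 17 of 115 under a peak that fell (14.8%) and in 948 of 6266 under a tested peak that was not called (15.1%). A window counts as under a peak where they share at least 1 base, and within the shared bases the E-box was in 22.3%, 13.0% and 11.6% of these windows in turn. The shared stretch had a median of 292, 300 and 257 bases in turn, so the length searched differed. The E-box was in 20.2% of all 32851 windows and in 16.3% of the 7318 under a consensus peak. Windows under rising peaks also held more G and C, with a median of 65.3% against 63.0% under peaks that were not called and 57.3% under peaks that fell. Other motifs searched in the same windows were TACCTG, which differs from CACCTG in its first base, in 10.5% under rises and 8.70% under falls. The AP-1 motif TGANTCA was in 5.25% and 10.4%. The octamer ATTTGCAT, known from small nuclear RNA and histone promoters, was in 7 of 591 (1.18%) and 7 of 115 (6.09%), which are few windows. The ETS-type motif CCGGAAG was in 130 (22.0%) and 5 (4.35%). Over all windows under a consensus peak these 4 shares were 7.65%, 5.90%, 1.56% and 20.8%, and over all windows 12%, 7.81%, 1.74% and 8.86%. Such matches describe letters and do not show a bound site.

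Seen by peak, 145 of 987 peaks over a window with the E-box rose (14.7%) and 296 of 4301 over a window without it (6.88%). Their median log2 fold changes were 0.29 and 0.18. With the E-box required to lie within the peak, a choice made after seeing the data, 112 of 755 peaks with it rose (14.8%) and 329 of 4533 without it (7.26%). Within quintiles of GC content, from the lowest to the highest, the share that rose was 10.6%, 11.0%, 13.9%, 17.6% and 19.7% with the E-box, and 4%, 6.69%, 7.22%, 8.39% and 8.33% without it. The share with the E-box was the higher one in each quintile. Peak width, CPM and the number of windows under a peak were not held equal. The part of GC content in the difference was not tested. Rises with and without the E-box numbered 73 and 161 without control replicate 1, 27 and 46 without control replicate 2, 67 and 132 without 48 h replicate 1, and 91 and 189 without 48 h replicate 2.

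**Figure D4:**
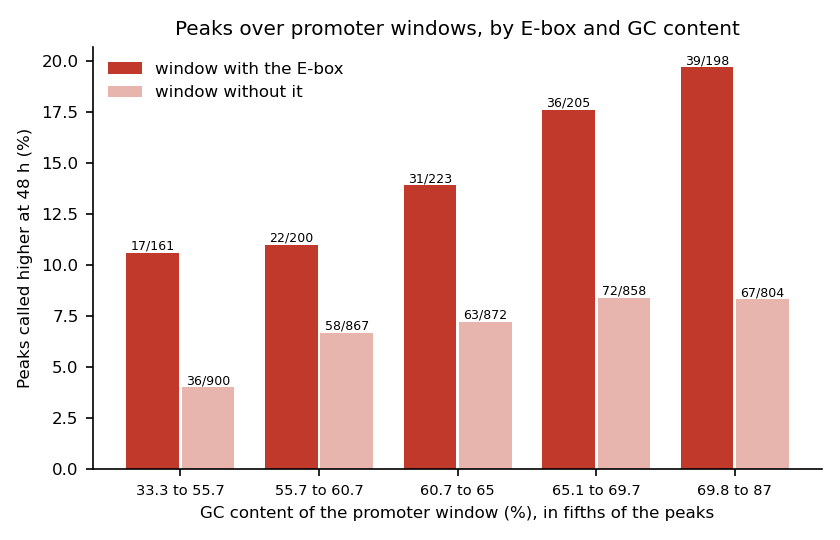
Percent of peaks over a promoter window that rose at 48 h, by quintile of the window's GC content, for windows with CACCTG (or CAGGTG) and without it. In the quintile with the most G and C the share is 19.7% with the motif and 8.33% without it.

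Signal fell at most peaks beside small nuclear RNA genes. Of 61 tested peaks within 1 kb of such a gene 39 fell (63.9%) and 0 rose (edgeR; 0 higher also at an unadjusted p below 0.05, and 0 by DESeq2). Their median log2 fold change was -0.99, and it lay between -1 and -0.93 over the alternative settings. Without 1 library, 32 to 38 fell, and 24 fell by DESeq2. Without control replicate 2, 1 of 64 tested peaks was called higher. These peaks were wide and strong, with a median of 966 bp and 96.4 CPM, against 375 bp and 35.3 CPM over all tested peaks. Among the quintile of peaks with the highest CPM 427 of 4239 fell (10.1%) and 236 rose (5.57%). Over all tested peaks 5.41% fell and 6.09% rose.

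Among named small nuclear and nucleolar RNA genes, the peak at Rnu1b6, a U1 RNA gene of splice site recognition, fell from 374 and 346 CPM to 116 and 125 CPM (log2 fold change -1.57, adjusted p = 1.16e-16). The peak at Rnu11, a gene of the minor spliceosome, fell from 105 and 121 CPM to 33.1 and 39.4 CPM (log2 fold change -1.68, adjusted p = 3.06e-08). The peak at Rnu12, of the same spliceosome, fell by 0.74 on the log2 scale (adjusted p = 9.00e-04). At Rnu7, the RNA gene of histone mRNA processing, the controls had 66.0 and 70.3 CPM and the 48 h libraries 66.2 and 53 CPM, with overlap (log2 fold change -0.19, adjusted p = 0.653). Many of these genes belong to families of near-identical copies, so the copy a read came from is uncertain. The genes in this and the next paragraph were picked after their values were seen.

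Of 62 tested peaks within 1 kb of a histone gene 20 fell (32.3%) and 1 rose (1.61%), with a median log2 fold change of -0.43. Over all tested peaks 5.41% fell and 6.09% rose. Both 48 h libraries lay below both controls at 46 of the 62, and at 26.7% of all tested peaks. The histone peaks were also wide and strong, with a median of 817 bp and 64.4 CPM, against 375 bp and 35.3 CPM over all tested peaks. The falls numbered 10 without control replicate 2, 10 to 17 over all 4 fits that left out 1 library, and 5 by DESeq2. The peak at H2ac24, a histone H2A gene, fell from 286 and 232 CPM to 128 and 122 CPM (log2 fold change -1.01, adjusted p = 3.11e-07). The peak at H2ac15, also an H2A gene, fell from 308 and 254 CPM to 164 and 127 CPM (log2 fold change -0.90, adjusted p = 4.95e-06). Of 57 tested peaks within 1 kb of a tRNA gene 7 fell (12.3%, against 5.41% of all tested peaks) and 1 rose, with a median of -0.17. The falls numbered 3 without control replicate 2 or without 48 h replicate 1, 5 without either of the other libraries, and 2 by DESeq2.

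Most peaks of the authors' 48 h list overlapped the control list, which is longer. Of 14479 peaks in the 48 h list 11762 overlapped 1 of the 18749 peaks of the control list by at least 1 base (81.2%, 95% Wilson interval 80.6 to 81.9%, counting error only). Of all consensus peaks, tested or not, 11591 were in both lists. Another 7002 were in the control list but not the 48 h list, and 2622 the reverse. The peak names refer to replicate 1 against IgG, and how replicate 2 was used in the lists is unknown here. Among tested consensus peaks, 571 of 5605 in the control list alone fell (10.2%) and 12 rose. Of 2286 in the 48 h list alone 560 rose (24.5%) and 1 fell. Without control replicate 1, control replicate 2, 48 h replicate 1 and 48 h replicate 2 in turn, the falls in the control list alone were 352, 122, 273 and 344, and the rises in the 48 h list alone 306, 145, 361 and 293. DESeq2 called 7 and 15. The lists and the counts come from the same libraries, so these shares are a description. Of 11571 peaks in both lists, 625 rose and 569 fell.

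Genes were next taken by group, with each peak given to the protein-coding or miRNA gene whose start or end is nearest, within 50 kb. Of the 23623 peaks 18292 (77.4%) had such a gene. Group counts are set beside 6.09% higher and 5.41% lower over all tested peaks. The epithelial list (junction, keratin and adhesion genes) had 41 tested peaks, of which 5 rose and 5 fell (12.2% each), with a median log2 fold change of 0.06. A peak 1790 bp from Cgn, the gene of the tight junction protein cingulin, had 77.0 and 52.0 CPM in the controls and 112 and 113 CPM at 48 h. Both 48 h libraries were the higher ones (log2 fold change 0.88, SE 0.21, adjusted p = 0.00227). The peak at the boundary of Jup, the plakoglobin gene of junctions, was faint, with 2.75 and 4.59 CPM in the controls and 17.2 and 23.9 CPM at 48 h (log2 fold change 2.29, SE 0.66, adjusted p = 0.0133).

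The epithelial falls were at keratins and at Dsg2, a desmosomal cadherin gene, besides 1 inside Jup. The peak over the Krt8 promoter printed above had 212 and 168 CPM in the controls and 111 and 113 CPM at 48 h (chr15:102004212-102005893). It fell with no overlap (log2 fold change -0.72, SE 0.16, adjusted p = 0.00126; DESeq2 0.181). A peak 10082 bp from Krt18, the keratin partner of Krt8, had 132 and 159 CPM in the controls and 84.7 and 59.9 CPM at 48 h (log2 fold change -1.01, SE 0.19, adjusted p = 5.64e-05). Without control replicate 2 the adjusted p was 0.296 at Cgn, 0.129 at Jup and 0.0636 at Krt18. That of Jup was also 0.0654 without control replicate 1 and 0.0786 without 48 h replicate 2. Leaving out 1 library left 0 to 4 rises and 1 to 4 falls in the list, and DESeq2 left 0 of each.

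The apical-basal polarity list, genes that set the top and bottom of epithelial cells, had 25 tested peaks. Of these 4 rose (16%) and 0 fell (edgeR; 3 lower at an unadjusted p below 0.05), with a median of 0.34. The median lay between 0.26 and 0.46 over the settings. DESeq2 called 0 higher and 0 lower (3 and 0 at an unadjusted p below 0.05), and 1 peak fell without 48 h replicate 2. Dlg5, a scaffold gene of the scribble family of polarity proteins, had a peak inside it with 118 and 104 CPM in the controls and 184 and 171 CPM at 48 h (log2 fold change 0.70, SE 0.17, adjusted p = 0.00227). Llgl1, a homologue of the fly polarity gene lethal giant larvae, had a promoter peak with 11 and 18.3 CPM in the controls and 49.0 and 39.4 CPM at 48 h (log2 fold change 1.5, SE 0.36, adjusted p = 0.00262). In both peaks the groups did not overlap. The other rises were at Patj and Llgl2. The adjusted p was 0.150 for Dlg5 without control replicate 2 and 0.0652 for Llgl1 without 48 h replicate 1, and the rises numbered 2 without control replicate 1, 1 without control replicate 2 and 2 without 48 h replicate 1.

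Of 99 tested peaks of the mesenchymal list (matrix, cytoskeletal and transition factor genes) 15 fell (15.2%) and 1 rose (1.01%), with a median of -0.18 that lay between -0.27 and -0.16 over the settings. The 15 falls belonged to 9 genes, and 11 of them lay outside genes. A peak 10684 bp from Col6a2, a collagen VI gene, had 57.8 and 36.7 CPM in the controls and 11.9 and 11.98 CPM at 48 h. Its log2 fold change was -1.87, with an SE of 0.38 and an adjusted p of 0.000375. A peak 4526 bp from Col6a1, of the same collagen, fell from 30.2 and 39.8 CPM to 10.6 and 10.3 CPM (log2 fold change -1.78, SE 0.42, adjusted p = 0.00216, 0.166 without control replicate 2).

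The peak over the Vim promoter printed above had 113 and 119 CPM in the controls and 86.0 and 56.5 CPM at 48 h (chr2:13573568-13574543). It fell without overlap (log2 fold change -0.68, SE 0.20, adjusted p = 0.0149), though the adjusted p was 0.217 without control replicate 2 and 0.211 without 48 h replicate 2. A second peak outside Vim fell by 1.05 on the log2 scale. The strongest peak of Cd44, a hyaluronan receptor gene, lies outside genes, 42612 bp from Cd44. It had 264 and 335 CPM in the controls and 194 and 265 CPM at 48 h. These groups overlap, and its call (log2 fold change -0.44, SE 0.14, adjusted p = 0.0207) was lost without control replicate 2 (0.585) and without 48 h replicate 1 (0.432). Snai1, which encodes the transition factor Snail, had 3 of 6 tested peaks that fell, by 2.28, 0.77 and 0.76 on the log2 scale. These lay outside genes, in turn 7721, 27484 and 10482 bp from Snai1, and its boundary peaks were not called. The largest fall was at a faint peak, with 27.5 and 19.9 CPM in the controls and 2.65 and 6.84 CPM at 48 h. The 1 rise, 36576 bp from the thrombospondin gene Thbs2, rested on 3 reads in the controls and 26 at 48 h, a ratio of 6.58 after scaling (95% interval 2.02 to 34.0, counting error only; adjusted p = 0.129 without control replicate 2). The falls of the list numbered 9 without control replicate 1, 1 without control replicate 2, 6 without 48 h replicate 1 and 8 without 48 h replicate 2. DESeq2 called 0, with 10 at an unadjusted p below 0.05.

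**Figure D5:**
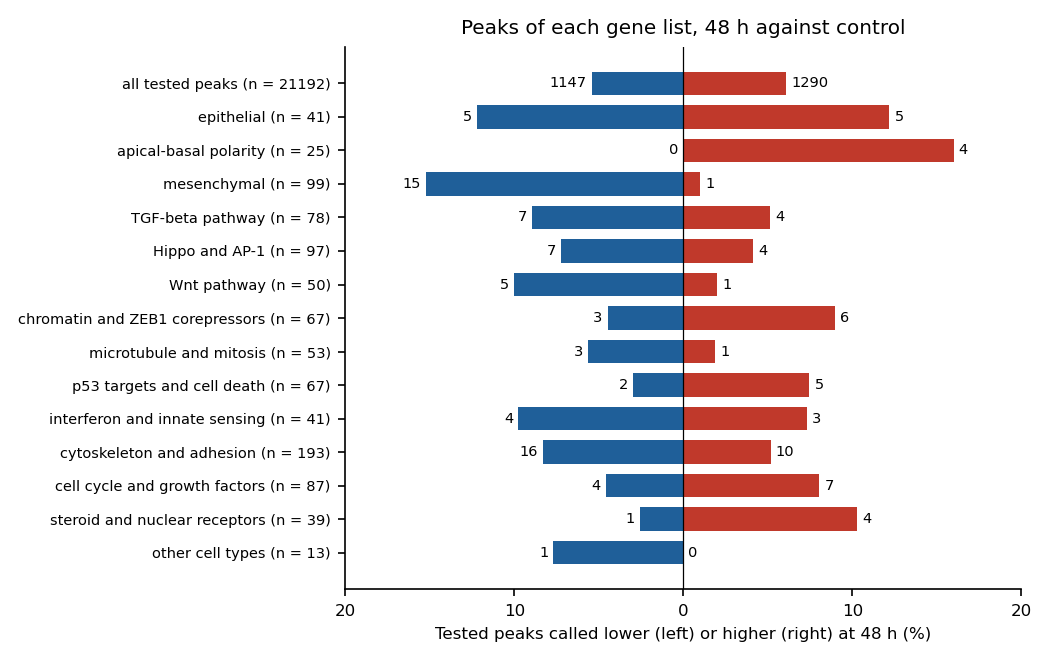
Percent of tested peaks called lower (blue, to the left) and higher (red, to the right) at 48 h in each gene list, with the number called at the end of each bar and the number tested (n) beside the name; the top bar is all tested peaks. The mesenchymal list has 15 falls and 1 rise, the polarity list 4 rises and 0 falls.

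In the TGF-beta pathway, which drives the mesenchymal transition through SMAD proteins, 4 of 78 tested peaks rose (5.13%) and 7 fell (8.97%), with a median of 0.09. Without control replicate 1, control replicate 2, 48 h replicate 1 and 48 h replicate 2 in turn, 2, 1, 1 and 4 rose and 6, 1, 0 and 5 fell, and DESeq2 called 0 of each. Among its inhibitors, a peak 3962 bp from Smad7 had 24.8 and 35.2 CPM in the controls and 72.8 and 73.6 CPM at 48 h. It rose without overlap (log2 fold change 1.21, SE 0.27, adjusted p = 0.00112; DESeq2 0.185). The promoter peak of Smurf2, a ubiquitin ligase gene of the pathway, rested on 3 control reads and 27 at 48 h (ratio 6.83, 95% interval 2.1 to 35.2, counting error only; adjusted p = 0.239 without control replicate 2 and 0.0693 without 48 h replicate 1). The related ligase gene Smurf1 had a peak that fell from 138 and 147 CPM to 86.0 and 94.1 CPM (log2 fold change -0.68, SE 0.18, adjusted p = 0.00658). Among the receptors, a peak 19068 bp from Tgfbr3, the betaglycan coreceptor gene, fell from 118 and 122 CPM to 70.1 and 73.6 CPM (log2 fold change -0.75, SE 0.20, adjusted p = 0.00553). Both calls were lost without control replicate 2 (0.170 at Smurf1, 0.139 at Tgfbr3) and without 48 h replicate 1 (0.0757 and 0.0580). Falls inside the signal transducer gene Smad3 were 0.64 and 1.01 on the log2 scale.

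The Hippo and AP-1 list had 4 rises and 7 falls among 97 tested peaks (4.12% and 7.22%), with a median of -0.01. In the same order of left-out libraries, 2, 0, 4 and 2 rose and 6, 3, 3 and 6 fell, and DESeq2 called 0 of each. All 4 rises were assigned to Amotl2, the gene of an angiomotin that holds YAP out of the nucleus. Of these rises 3 lay outside genes, up to 30322 bp from Amotl2. The strongest call among them had 13.8 and 7.64 CPM in the controls and 47.6 and 47.9 CPM at 48 h (log2 fold change 2.25, SE 0.40, adjusted p = 3.12e-05, 0.0524 without control replicate 2). A peak 33347 bp from Tead1, the DNA-binding partner of YAP, fell from 74.2 and 78.0 CPM to 29.1 and 34.2 CPM (log2 fold change -1.28, SE 0.26, adjusted p = 0.000322; DESeq2 0.127). The promoter peak of Jun, an AP-1 subunit gene, fell from 165 and 134 CPM to 86.0 and 78.7 CPM (log2 fold change -0.81, SE 0.18, adjusted p = 0.00129; DESeq2 0.195). In the Wnt list 1 of 50 peaks rose and 5 fell (10%), with a median of -0.03. Leaving out the libraries as before gave 1, 0, 2 and 1 rises and 3, 1, 2 and 4 falls, and DESeq2 called 0 of each. The rise was at the boundary of Lrp5, a Wnt coreceptor gene, from 16.5 and 18.3 CPM to 50.3 and 44.5 CPM (log2 fold change 1.42, SE 0.34, adjusted p = 0.00282, 0.0896 without control replicate 2). Among the ligands, a peak near Wnt11 fell from 30.2 and 19.9 CPM to 2.65 and 8.55 CPM (log2 fold change -2.13, SE 0.59, adjusted p = 0.00923). It was lost without control replicate 1 (0.0821) and without 48 h replicate 1 (0.177). A peak near the ligand gene Wnt7b fell by 0.64 on the log2 scale, with an adjusted p of 0.228 without control replicate 2 and 0.0567 without 48 h replicate 2.

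Among genes of chromatin enzymes and ZEB1 corepressors, 6 of 67 tested peaks rose (8.96%) and 3 fell (4.48%), with a median of 0.00. Without control replicate 1, control replicate 2, 48 h replicate 1 and 48 h replicate 2, the rises were 4, 0, 3 and 4 and the falls 2, 0, 2 and 1, and DESeq2 called 0 of each. Tet3, which encodes an enzyme that oxidises methylcytosine, had neighbouring peaks inside it that went in opposite directions. The peak at chr6:83443481-83443903 rose from 13.8 and 15.3 CPM to 52.9 and 41.1 CPM (log2 fold change 1.68, SE 0.36, adjusted p = 0.000681). The peak at chr6:83442606-83443107 fell from 85.2 and 81.0 CPM to 46.3 and 35.9 CPM (log2 fold change -0.98, SE 0.24, adjusted p = 0.00386). Without control replicate 2 their adjusted p was 0.0524 and 0.0748. A peak inside Ezh2, the gene of a histone H3K27 methyltransferase, rose by 1.30 on the log2 scale, and its adjusted p was 0.186 without control replicate 2. A peak inside the histone deacetylase gene Hdac5 had a log2 fold change of -1.34 (adjusted p = 0.0116), and without any 1 of the 4 libraries the adjusted p lay between 0.0572 and 0.0828.

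Eribulin acts on microtubules, and of 53 tested peaks of the microtubule and mitosis list 1 rose and 3 fell (5.66%), with a median of 0.12. The rise was called only without control replicate 1 when 1 library was left out, the falls numbered 1 without control replicate 2, and DESeq2 called 0 higher and 1 lower. The rise was over the promoter of Kif18a, a kinesin gene of chromosome alignment, from 44.0 and 22.9 CPM to 51.6 and 61.6 CPM. The 48 h libraries were little above control replicate 1 (log2 fold change 0.87, SE 0.29, adjusted p = 0.0370), and the adjusted p was 0.679 without control replicate 2, 0.0632 without 48 h replicate 1 and 0.164 without 48 h replicate 2. A peak 5114 bp from Wee1, a kinase gene that delays entry into mitosis, fell from 60.5 and 79.5 CPM to 26.5 and 22.2 CPM (log2 fold change -1.55, SE 0.28, adjusted p = 3.63e-05, 0.0617 without control replicate 2). The other gene of this list with a fall is Kif2c, given above. Its peak lies outside genes, 7993 bp from Kif2c and 1 kb or less from the small nuclear RNA gene Gm25099. Of 67 peaks of p53 targets and cell death genes 5 rose (7.46%) and 2 fell (2.99%), with a median of 0.01. Without control replicate 1, control replicate 2, 48 h replicate 1 and 48 h replicate 2, the rises were 0, 1, 1 and 3 and the falls 2, 0, 1 and 0, and DESeq2 called 0 of each. The rises included Bbc3, the gene of the death factor PUMA, from 24.8 and 21.4 CPM to 52.9 and 41.1 CPM (adjusted p = 0.0188), and Bcl2, the gene of a survival factor, from 8.25 and 22.9 CPM to 41.0 and 37.6 CPM (adjusted p = 0.0253). Bbc3 was lost without control replicate 1 (0.0515), control replicate 2 (0.266) and 48 h replicate 1 (0.220), and Bcl2 without control replicate 1 (0.246), 48 h replicate 1 (0.136) and 48 h replicate 2 (0.0515).

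The interferon and innate sensing list had 3 rises and 4 falls among 41 tested peaks (7.32% and 9.76%), with a median of -0.02. Without control replicate 1, control replicate 2, 48 h replicate 1 and 48 h replicate 2, the rises were 1, 0, 0 and 1 and the falls 3, 2, 2 and 5, and DESeq2 called 0 of each. The rises lay at or inside the genes Bst2, Tap1 and Ifit2, and the 4 falls outside genes. At Bst2, the gene of the virus-tethering protein tetherin, the promoter peak had 24.8 and 33.6 CPM in the controls and 63.5 and 58.2 CPM at 48 h (log2 fold change 1.00, SE 0.28, adjusted p = 0.0117). At Tap1, a peptide transporter gene whose start neighbours that of Psmb9, it had 22.0 and 16.8 CPM in the controls and 42.3 and 44.5 CPM at 48 h (log2 fold change 1.20, SE 0.35, adjusted p = 0.0133). Neither peak overlapped between the groups. Bst2 was lost without control replicate 1 (0.0927), control replicate 2 (0.0871) and 48 h replicate 1 (0.0977), and Tap1 without control replicate 2 (0.282), 48 h replicate 1 (0.0599) and 48 h replicate 2 (0.0531). A peak 18575 bp from Irf1, an interferon regulatory factor gene, fell from 71.5 and 50.5 CPM to 25.1 and 20.5 CPM (log2 fold change -1.32, SE 0.30, adjusted p = 0.00157) and was called without each library in turn. A peak near the chemokine gene Ccl5 fell by 0.89 on the log2 scale, with an adjusted p of 0.326 without control replicate 2.

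In the cytoskeleton and adhesion list 10 of 193 tested peaks rose (5.18%) and 16 fell (8.29%), with a median of -0.07. Left without control replicate 1, control replicate 2, 48 h replicate 1 or 48 h replicate 2, it had 8, 4, 7 and 8 rises and 10, 5, 8 and 9 falls, and DESeq2 called 2 and 1. Besides Ssh3, a peak inside Tns3, the gene of the focal adhesion protein tensin 3, rose from 35.8 and 18.3 CPM to 74.1 and 92.4 CPM (log2 fold change 1.73, SE 0.29, adjusted p = 8.98e-06, 0.0617 without control replicate 2). A peak 25931 bp from Ezr, the gene of ezrin, which links actin to the membrane, fell from 116 and 94.8 CPM to 42.3 and 32.5 CPM (log2 fold change -1.42, SE 0.23, adjusted p = 5.72e-06). A peak inside the laminin gene Lamc1 fell from 118 and 144 CPM to 70.1 and 59.9 CPM (log2 fold change -1.03, SE 0.19, adjusted p = 8.66e-05, 0.0781 without control replicate 2). Of 87 peaks of cell cycle and growth factor genes 7 rose (8.05%) and 4 fell (4.60%), with a median of -0.02. In the same order these were 6, 0, 5 and 5 rises and 3, 0, 2 and 3 falls, and DESeq2 called 0 of each. A peak inside Egfr, the epidermal growth factor receptor gene, rose from 22.0 and 21.4 CPM to 54.2 and 70.1 CPM (log2 fold change 1.49, SE 0.32, adjusted p = 0.000689). Peaks near the growth factor genes Ereg and Vegfa fell by 0.80 and 0.63 on the log2 scale. Without control replicate 2 the adjusted p was 0.0586 at Egfr, 0.115 at Ereg and 0.402 at Vegfa, and that of Vegfa was 0.0510 without 48 h replicate 1.

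Of 39 tested peaks of steroid and nuclear receptor genes 4 rose (10.3%) and 1 fell (2.56%), with a median of 0.19. The rises numbered 0 without control replicate 2 and 2 without 48 h replicate 1, the fall was called only without control replicate 2 when 1 library was left out, and DESeq2 called 0 of each. The median ran from 0.05 to 0.20 over these leave-outs. A peak near Vdr, the vitamin D receptor gene, had 24.8 and 6.12 CPM in the controls and 51.6 and 44.5 CPM at 48 h (log2 fold change 1.91, SE 0.38, adjusted p = 0.000254, 0.252 without control replicate 2). The promoter peak of the fatty acid sensor gene Ppara had 13.8 and 3.06 CPM in the controls and 39.7 and 23.9 CPM at 48 h (log2 fold change 2.22, SE 0.49, adjusted p = 9.00e-04). It was lost without control replicate 2 (0.250) and without 48 h replicate 1 (0.0693). At both peaks the controls differed widely from each other. The fall was at the clock gene Nr1d1, from 143 and 107 CPM to 84.7 and 71.8 CPM (adjusted p = 0.0271), lost without control replicate 1 (0.239), 48 h replicate 1 (0.0507) and 48 h replicate 2 (0.147). Of 13 peaks of marker genes of blood, endothelium, nerve, muscle and liver, 0 rose (edgeR; 1 at an unadjusted p below 0.05, DESeq2 0) and 1 fell. That fall was near Ptprc, the gene of the leukocyte antigen CD45, by 1.46 on the log2 scale, with an adjusted p of 0.189 without control replicate 2 and 0.0644 without 48 h replicate 1.

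The strongest peaks of several transition genes were not called. At Cdh1, a peak inside the E-cadherin gene had 71.5 and 94.8 CPM in the controls and 97.9 and 80.4 CPM at 48 h. The groups overlapped (log2 fold change 0.06, SE 0.20, adjusted p = 0.881). The strongest Krt18 peak lies outside protein-coding genes, 13671 bp from Krt18 and over the promoter of Gm41405. It had 204 and 222 CPM in the controls and 217 and 231 CPM at 48 h, with overlap (log2 fold change 0.06, SE 0.14, adjusted p = 0.841). A peak inside Zeb1 itself had 79.8 and 94.8 CPM in the controls and 64.8 and 77.0 CPM at 48 h (log2 fold change -0.35, SE 0.21, adjusted p = 0.286). The 48 h libraries were the lower ones there, by less than the test's threshold. The strongest Snai1 peak, at the gene's boundary, had 90.8 and 97.8 CPM in the controls and 68.8 and 66.7 CPM at 48 h (log2 fold change -0.49, SE 0.21, adjusted p = 0.111). The log2 fold changes at the strongest peaks of the others were -0.29 (SE 0.30) at Epcam, an epithelial adhesion gene, -0.18 (SE 0.23) at the fibronectin gene Fn1, 0.34 (SE 0.31) at Snai2, -0.31 (SE 0.23) at Zeb2, 0.16 (SE 0.44) at the N-cadherin gene Cdh2 and 0.20 (SE 0.32) at the oestrogen receptor gene Esr1. The Epcam and Zeb2 peaks lie outside genes, 26079 bp from Epcam and 13985 bp from Zeb2. A p above the threshold does not show that binding at the peaks of this paragraph was equal.

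Some genes had 4 or more peaks called in 1 direction, and these were picked after their values were seen. Over all tested peaks 6.09% rose and 5.41% fell. Otud7b had 4 rises and 1 fall among 10 tested peaks, and Amotl2 4 rises among 7. Falls were 4 of 8 at Tcim, 4 of 5 at the calsequestrin gene Casq2 and 4 of 6 at the Notch target gene Hes1, none of them beside a small nuclear RNA gene. The Hes1 falls lay outside genes, 1265 to 43783 bp from Hes1. Those of Tcim lay 5 to 37255 bp from Tcim. The falls at Tex14 (4 of 4), Eapp (4 of 5) and BC107364 (4 of 5) lay in regions with such genes.

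The 48 h libraries were also set against those of 24 h and 72 h. Against 24 h, 47 peaks were higher and 113 lower at 48 h, 0.755% of the tested peaks (0.222% and 0.533%) (edgeR; DESeq2 called 0 and 0, with 171 and 248 at an unadjusted p below 0.05). Of the 47 higher peaks 21 lay at a gene boundary, and of the 113 lower peaks 4 did. A peak inside Dhrs3, a retinal reductase gene, had 25.6 and 42.3 CPM at 24 h and 91.3 and 77.0 CPM at 48 h (log2 fold change 1.28, SE 0.24, adjusted p = 0.00189). The promoter peak of Sav1, a Hippo pathway scaffold gene, had 11.9 and 12.3 CPM at 24 h and 39.7 and 41.1 CPM at 48 h (log2 fold change 1.71, SE 0.36, adjusted p = 0.00801). A peak near the keratin gene Krt27 had 73.3 and 75.0 CPM at 24 h and 26.5 and 23.9 CPM at 48 h (log2 fold change -1.54, SE 0.26, adjusted p = 0.000288). In none of the 3 did the times overlap. The higher and lower calls were 5 and 25 without 24 h replicate 1, 7 and 46 without 24 h replicate 2, 2 and 15 without 48 h replicate 1, and 73 and 126 without 48 h replicate 2. The Dhrs3 call was lost without 24 h replicate 1 and without 48 h replicate 1 (0.104 each), and that of Sav1 without 24 h replicate 1 (0.0884), 24 h replicate 2 (0.0892) and 48 h replicate 1 (0.0871).

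Of the 24 peaks named first, 4 differed between 48 h and 24 h. The Mreg peak had 247 and 225 CPM at 24 h, between the control and 48 h levels, and fell further by 48 h (log2 fold change -1.07, SE 0.15, adjusted p = 2.37e-06; DESeq2 0.0617). Kctd3 was higher at 48 h than at 24 h by 0.85, and BC107364 and Kif2c were lower by log2 fold changes of -0.62 and -1.02. All 24 were called against the shared controls at 24 h and at 72 h as well, where 11.0% (6.44% higher, 4.61% lower) and 12.6% (6.84% higher, 5.74% lower) of all tested peaks were called. Since the 3 drug times share their controls, these calls are not independent. The Ssh3 peak stood at 83.6 and 99.6 CPM at 24 h, 76.7 and 87.2 CPM at 48 h and 48.5 and 47.1 CPM at 72 h.

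Against 48 h, 6 peaks were higher and 2 lower at 72 h, 0.0378% of the tested peaks (0.0283% and 0.00944%) (edgeR; DESeq2 called 0 and 0, with 155 and 164 at an unadjusted p below 0.05). The promoter peak of Phf20, a gene of a histone acetyltransferase complex, had 31.8 and 30.8 CPM at 48 h and 76.3 and 84.7 CPM at 72 h (log2 fold change 1.34, SE 0.28, adjusted p = 0.0242). The promoter peak of the stress-response gene Sesn2 had 39.7 and 37.6 CPM at 48 h and 76.3 and 103.5 CPM at 72 h (log2 fold change 1.17, SE 0.26, adjusted p = 0.0476). Both lost the call without each of the 4 libraries in turn, with adjusted p from 0.0862 to 0.373 at Phf20 and from 0.0944 to 0.473 at Sesn2. The higher and lower calls were 10 and 10 without 48 h replicate 1, 0 and 3 without 48 h replicate 2, 3 and 1 without 72 h replicate 1, and 0 and 0 without 72 h replicate 2.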

How the data were processed

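ZEB1 CUT&RUN was done in PB3 cells with an EpiCypher CUTANA kit and read as paired ends of 76 bp, per the labels' protocols. The label text also calls the material Tn5 fragmented DNA, which is another method. The deposited table holds the authors' raw read count per consensus peak for 8 ZEB1 libraries. Per the file headers and values, the deposited peak lists give the authors' fold enrichment (a ratio over IgG) and −log10 q per peak. The submitters' processing notes list the aligner Bowtie2 2.2.6, the peak caller MACS2 2.1.1, featureCounts for counting, the build mm10 (GRCm38), and also cutadapt 2.4, bedtools 2.30.0, bcl2fastq 2.20.0.422, deepTools and Picard. The peak names refer to replicate 1, and the use of replicate 2 in peak calling is not stated in them.

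Counts were fitted with edgeR 4.0.16 in R 4.3.3 (TMM, filterByExpr, robust quasi-likelihood F-test, 1 mean for each of 4 groups over 8 libraries). P-values were adjusted by Benjamini-Hochberg over 21192 peaks, with a threshold of 0.05. SE is the log2 fold change divided by the square root of F. Genes and promoter windows came from RefSeq (GRCm38.p6), and 546 of 548 list members matched. A gene boundary is a start or end.

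Named peaks were the 12 rises and 12 falls with the smallest p (1 per gene, groups not overlapping), up to 2 called peaks per list and direction, the strongest peak of 13 fixed genes, and the 3 rises and falls with the smallest p between drug times. Other genes were picked after their values were seen. Some peaks that this rule names are not reported here. Members and lists were chosen with earlier results of these data known.

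The fit was tested on simulated counts of 20702 peaks. For 48 h against control it called 40% of tested peaks made 1 log2 unit higher, 29.8% of those made 1 lower, and 5 of 20508 unchanged peaks. The simulated spread between libraries beyond sampling noise was set low. It was close to edgeR's estimate (0.034, as a square root of the dispersion) and far below that of DESeq2 (0.259, from the median dispersion). The few false calls hold for such a low spread only. Alternatives were DESeq2 1.42.0, other scalings and filters, leaving out each library, a replicate block, summed pairs and thinning. Replicates with the same number did not deviate together. Since replicates differed about as much as sampling noise, this cannot show whether the numbers pair the samples.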

Additional observations from a re-analysis of the deposited data

Results flagged for a closer look

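Peaks at which the response differed between drug times by a test of the difference itself are listed here, with log2 fold changes from edgeR's quasi-likelihood test. From 24 h to 48 h the change was 0.85 at Kctd3, 0.89 at the TGF-beta inhibitor gene Smad7, 1.28 at Dhrs3, 1.12 at Ctdp1 and 1.71 at Sav1. It was -1.07 at Mreg, -0.62 at BC107364, -1.02 at Kif2c, -1.54 at Krt27 and -1.08 at Sos1, a gene of Ras activation. From 48 h to 72 h it was 1.34 at Phf20, 0.70 at Gtpbp4 and 1.17 at Sesn2. The Ctdp1 peak had 77.0 and 56.6 CPM in the controls, 34.1 and 43.7 CPM at 24 h, 96.6 and 71.8 CPM at 48 h and 83.2 and 103.5 CPM at 72 h, so that 24 h was the low time. Its change from 24 h to 48 h had an adjusted p of 0.126 without 24 h replicate 1 and 0.265 without 48 h replicate 1. The Sos1 peak was highest at 24 h, with 114 and 110.5 CPM against 54.2 and 51.3 CPM at 48 h. The Smad7 peak was highest at 48 h, with 40.9 and 38.2 CPM at 24 h, 72.8 and 73.6 CPM at 48 h and 43.9 and 53.3 CPM at 72 h. The Gtpbp4 change lost its call without 48 h replicate 2 (0.453) and without 72 h replicate 2 (0.473). DESeq2 called none of the 13 changes at an adjusted p below 0.05.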

How the results depend on the processing

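Against control at 48 h, DESeq2 called 36 peaks higher and 40 lower, of which 9 and 8 were at gene boundaries, 10 and 21 outside genes. It called 24 falls beside small nuclear RNA genes, 5 beside histone genes, 0 in the mesenchymal list, and 5 and 8 rises over promoters with and without CACCTG. It called 0 and 0 peaks for 48 h against 24 h and 0 and 0 for 72 h against 48 h. With all libraries thinned to the smallest total, 315 peaks were higher and 312 lower, 126 and 39 at boundaries, 88 and 169 outside genes, with 11 histone and 2 mesenchymal falls and 36 and 76 rises with and without CACCTG. Without 1 library the counts ran from 257 to 748 higher and 260 to 792 lower, 85 to 311 and 28 to 85 at boundaries, 81 to 238 and 144 to 426 outside genes, 32 to 38 beside small nuclear RNA genes, 10 to 17 beside histone genes, 1 to 9 in the mesenchymal list, and 27 to 91 and 46 to 189 with and without CACCTG. They ran from 2 to 73 higher and 15 to 126 lower at 48 h against 24 h, and from 0 to 10 in each direction at 72 h against 48 h. The causes were not tested. The overlap of the 48 h list with the control list was 76.9% at −log10 q of at least 5 and 76.1% when the overlap had to cover at least 50% of the 48 h peak.

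With the replicate number as a replicate block, 1273 peaks were higher and 1069 lower at 48 h against control, 56 and 107 at 48 h against 24 h and 6 and 2 at 72 h against 48 h. The correlation between groups of the difference between replicates lay between -0.0302 and 0.00100. Differences so close to sampling noise would correlate little even in paired samples, so pairing stays unknown. The block ended the call of none of the named peaks.

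Among named peaks not called at 48 h against control, the sign turned when 1 library was left out. The log2 fold change then ran from -0.105 to 0.339 at Cdh1 (negative without control replicate 1, -0.085, and 48 h replicate 1), from -0.003 to 0.139 at the strongest Krt18 peak (without control replicate 1), from -0.210 to 1.159 at Cdh2 (without control replicate 1, and -0.070 without 48 h replicate 2), from -0.023 to 0.334 at Esr1 (without control replicate 2) and from -0.372 to 0.326 at Gtpbp4 (without 48 h replicate 1, and -0.075 without control replicate 2). The Gtpbp4 value was -0.045 after thinning. Of the named changes 35 lost the call without control replicate 2, 23 without 48 h replicate 1, 13 without 48 h replicate 2 and 8 without control replicate 1. DESeq2 ended 38 and gave 19 no adjusted p, and thinning ended 24. Counts by position, small RNA, histone, motif and mesenchymal list were tried under these settings after seeing the data. A median count of 10 to 24 per peak and library limits what small changes can be called.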
